A study of Mus musculus with 4 samples.

Results

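The 40 genes described here encode the machinery that copies DNA and the enzymes that supply its nucleotides, together with the factors that place new histones behind the fork and the E2F activators that drive transcription of many of these genes. They were taken as a list that was chosen with earlier results of these data known. Each had to reach 1 CPM (the authors' read count after scaling for library size) in at least 2 of the 4 libraries. All 40 listed genes met that rule, of 17712 genes in the deposited table and 13224 that met it in all. None lay near the limit: the member with the smallest mean, E2f1, was measured at 8.48 to 10.1 CPM, and no listed gene fell outside.

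The series holds 4 RNA sequencing libraries from mouse forelimbs, 2 labelled wild type and 2 labelled Shh null, from littermate embryos of the Swiss Webster strain. The age labels give E10.25 with 33-35 somites, while the source labels give E10.5. The labels do not describe the Shh allele, do not say how many embryos were pooled, and call the replicates technical, so the p-values below measure the spread between libraries and may not include the spread between embryos. Shh encodes Sonic hedgehog, the signal of the posterior limb bud margin. Its transcript was measured at 11.4 and 7.88 CPM in wild type and at 3.15 and 2.42 CPM in Shh null. The direct pathway target Gli1 was at 16.6 and 16.0 CPM against 0.249 and 0.366 CPM, so both genes went the way of the labels. Depth was 18456502 to 29620468 reads per library, and each replication gene was covered by at least 154 reads in each library. Limb mesenchyme markers (Prrx1, Prrx2, Twist1, Tbx5, Meox2 and Msx1) were all present, at a summed 831 to 845 CPM in wild type and 1143 to 1178 CPM in Shh null, with Prrx1, Prrx2 and Twist1 called higher in Shh null. The other 3 were not called: Meox2 was at 94.0 and 62.6 against 62.3 and 47.9 CPM (log2 fold change -0.48), Tbx5 at 65.0 and 61.5 against 80.2 and 65.0 CPM (0.19) and Msx1 at 7.93 and 4.90 against 10.6 and 10.8 CPM (0.69).

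Before a cell can divide, the origin recognition complex marks start sites on the DNA, and Cdc6 and Cdt1 load the ring-shaped MCM helicase there. Cdc45 and the GINS complex then switch the helicase on, polymerases copy both strands with the PCNA clamp holding them in place, and ribonucleotide reductase and thymidylate synthase provide the building blocks. Many of these genes are transcribed as cells enter S phase under E2F control. In the early limb bud the mesenchyme proliferates rapidly, and Sonic hedgehog is known as a signal for its growth as well as for its pattern.

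Most of the 40 transcripts were slightly less abundant in the Shh null limbs, and 1 of them, Cdc6, passed the test. The log2 fold change, given throughout on the scale of log2(CPM + 1), was below 0 for 38 of 40 genes, against 50.1% of all tested genes. The median was -0.21 for the 40 genes and -0.00 for all tested genes, which corresponds to a median difference in mean CPM of -13.6%, with the middle of the list between -16.1% and -6.91%. Genes within the members' range of levels leaned the same way to a smaller extent. Of the 9237 tested genes whose wild-type mean lay within the range of the 40, 57.9% were below 0 and the median was -0.04. This set shares only the range of wild-type means (9.225 to 788 CPM) and is not matched to the members in level. It was picked by the wild-type mean alone, which can by itself tilt a set toward values below 0. Both Shh null libraries lay below both wild-type libraries for 25 of the 40 genes, against 25% of all tested genes and 2825 of those 9237 (30.6%), and no member showed the opposite order, which 25.1% of all tested genes did.

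After Benjamini-Hochberg adjustment over all tested genes, limma called 1 of 40 lower and 39 were not called, so 2.5% of the list was called lower against 1.24% of all tested genes (2.48% in either direction). That share is near the background and is no result about the list. edgeR and DESeq2 on the recovered reads each called 1 member lower too, against 1.21% and 2.06% of all tested genes. No member was called higher by any of the 3 tools. Before adjustment, limma gave a p under 0.05 to 15 members on the lower side (9.02% of all tested genes) and to 0 on the higher side (9.5%). Of the 9237 tested genes within the members' range of wild-type means, 1029 were lower and 636 higher at that p. Counts at this p for single roles and lists, given below, are to be read against these shares. The 95% interval of the log2 fold change lay wholly below 0 for 15 members, and the median standard error was 0.11, so differences of the size seen here are close to what 2 libraries a group can resolve. In bulk limb tissue, fewer cycling cells and less RNA per cell cannot be told apart.

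**Figure D1:**
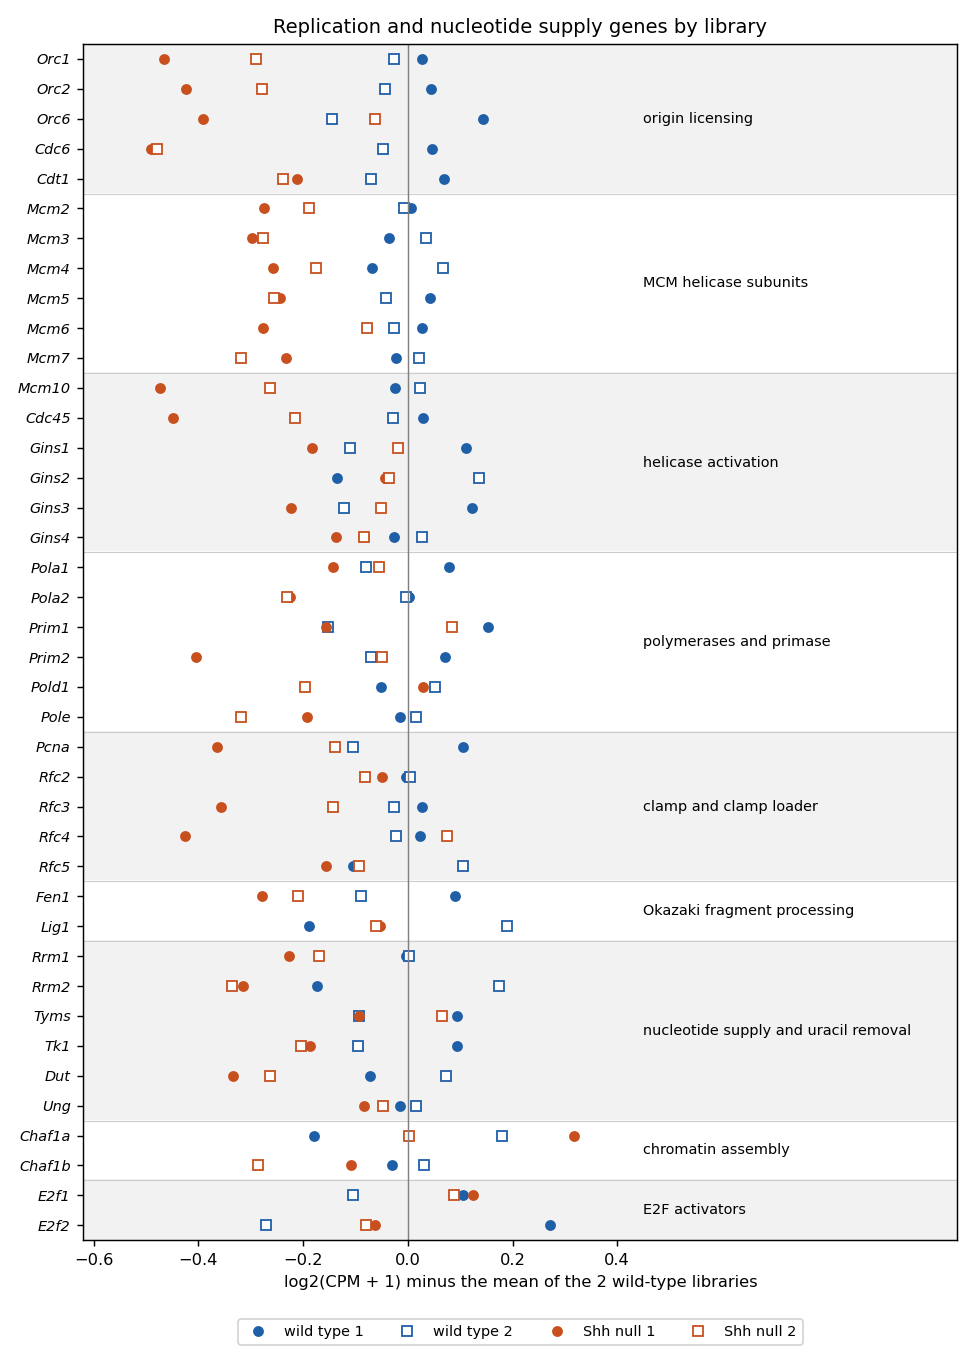
Level of each of the 40 genes in each library, as log2(CPM + 1) minus the mean of the 2 wild-type libraries (horizontal axis), with genes grouped by role; circles are replicate 1 and open squares replicate 2. In 25 rows both Shh null symbols lie to the left of both wild-type symbols, and in 15 rows the genotypes overlap.

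The tilt was seen in each Shh null library, more in the first. Relative to the wild-type mean, the median of the 40 genes stood at -0.23 in Shh null 1 and -0.16 in Shh null 2, and at 0.02 and -0.02 in wild type 1 and 2. The medians over all tested genes were between -0.00 and 0.00 in the same libraries. Summed over the members, the level was 7628 and 7508 CPM in wild type and 6340 and 6660 CPM in Shh null. Shh null 1 was the lower of the Shh null libraries for 26 of 40 members. Without wild type 1, without wild type 2, without Shh null 1 and without Shh null 2, the members below 0 numbered 35, 36, 35 and 37, and their median was -0.17, -0.23, -0.16 and -0.23. With quantile normalization, which forces 1 common distribution on the libraries, 34 members were below 0, the median was -0.13, and 20 members had both Shh null libraries below both wild-type ones.

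**Figure D2:**
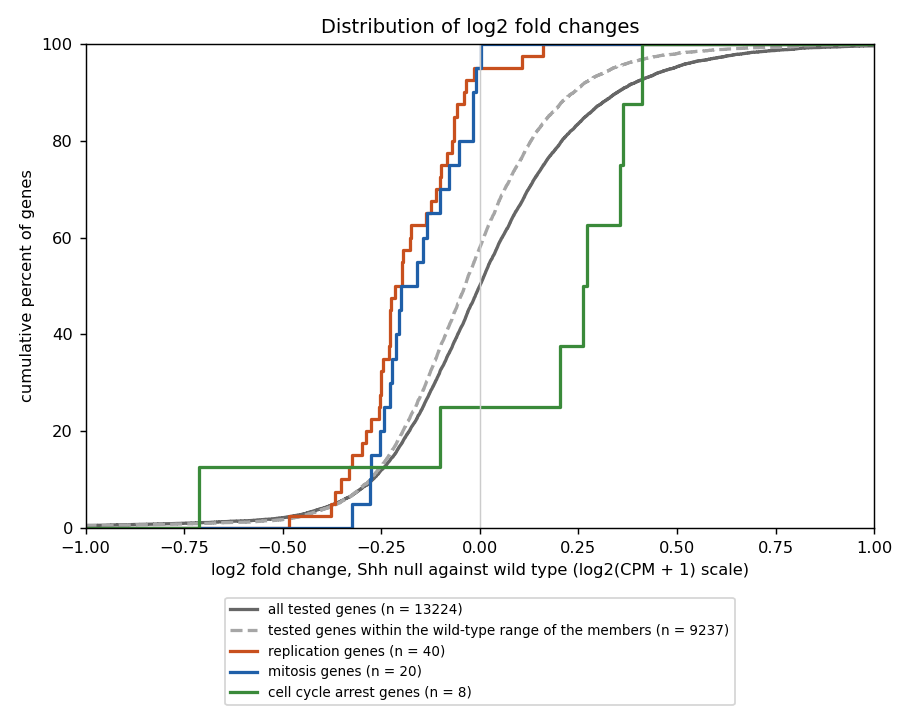
Cumulative percent of genes (vertical axis) against log2 fold change, Shh null against wild type (horizontal axis, cropped at -1 and 1). Curves are for all tested genes, tested genes within the members' wild-type range, the 40 replication genes, 20 mitosis genes and 8 cell cycle arrest genes. The curve of the replication genes reaches 95% at 0, while that of all tested genes reaches 50.1%.

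Other features of the libraries moved with genotype or with single libraries. Macrophage markers (6 of 7 in the table) summed to 10.2 and 10.3 CPM in wild type and 20.5 and 18.8 CPM in Shh null, with Cx3cr1 called higher in Shh null and C1qa under 1 CPM in each library. Erythroid markers (6 of 10 in the table, led by the embryonic globin Hbb-y) summed to 10940 CPM in wild type 1, against 2923 CPM in wild type 2 and 3714 and 6303 CPM in Shh null. The sums for surface ectoderm (7 of 7; 295 to 303 CPM in wild type, 333 to 345 CPM in Shh null), endothelium (6 of 6; 174 to 228 and 202 to 206 CPM), myogenic precursors (6 of 6; 92.4 to 99.0 and 109 to 111 CPM) and neural and neural crest cells (5 of 6; 13.4 to 14.8 and 13.2 to 15.4 CPM) differed less. The sums of surface ectoderm and myogenic precursors still stood apart by genotype, with both Shh null libraries above both wild-type ones. Pax7 and Myod1, and Sox10, Foxd3 and Elavl3, were under 1 CPM throughout, and Foxd3 had 0 reads in Shh null 2. Sex-linked transcripts differed as well: the inactive X transcript Xist was at 225 and 152 CPM in wild type against 522 and 468 CPM in Shh null, and the Y-linked Ddx3y at 119 and 106 against 39.1 and 42.3 CPM. The part of these differences in the levels of the replication genes was not tested.

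Origin licensing held the called gene. Cdc6 (ENSMUSG00000017499.15, chromosome 11, 98907801 to 98923940, plus strand, mm10), the ATPase that brings the MCM ring to the origin, was measured at 175 and 164 CPM in wild type and at 120.1 and 121.0 CPM in Shh null. The groups were well apart and the Shh null libraries nearly equal. Its mean fell from 169 ± 7.85 to 120.5 ± 0.663 CPM (SD, n = 2), so it fell by 28.7%, with a log2 fold change of -0.48 ± 0.09 (SE; limma adjusted p = 0.0291, 95% interval -0.70 to -0.27). edgeR gave an adjusted p of 0.0312 and DESeq2 of 0.00197 on the recovered reads, and the authors' deposited table lists a log2 fold change of -0.49 with a false discovery rate of 0.00796, the only 1 under 0.05 among the 40. The call ended when wild type 1 (adjusted p = 0.0682), Shh null 1 (0.214) or Shh null 2 (0.1) was left out, although the log2 fold change stayed between -0.44 and -0.49 in these fits. It also ended with quantile normalization (0.0792, log2 fold change -0.40) and with no filter on low values (0.053). Cdc6 kept its sign over all 14 alternatives, with log2 fold changes from -0.53 to -0.40. It stayed called with the other pseudocounts, the 5 CPM filter, median-ratio scaling, the replicate block, edgeR and DESeq2. A crossed replicate block, 1 of the 14, also called it (limma adjusted p = 0.000932), but that block was chosen after seeing the data.

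**Figure D3:**
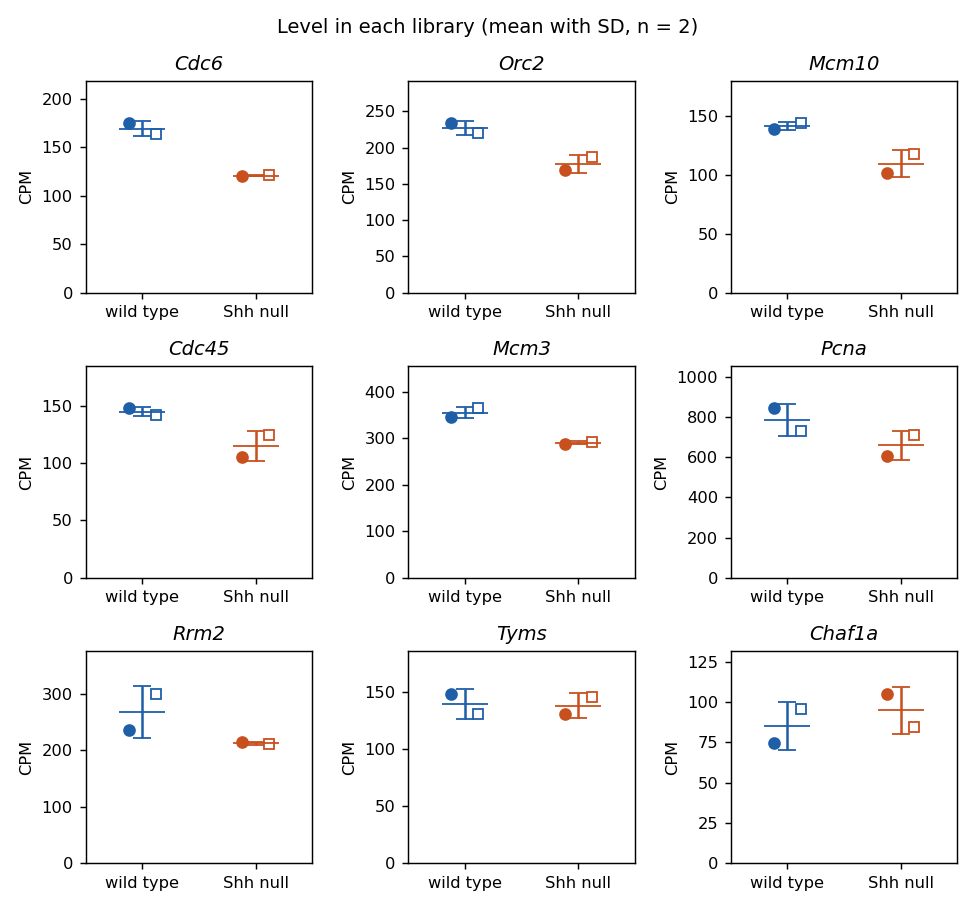
CPM (vertical axes from 0) in each library for 9 of the genes, with circles for replicate 1, open squares for replicate 2, and the mean with SD (n = 2) of each genotype. The Shh null libraries of Cdc6 lie at 120.1 and 121.0 CPM, below both wild-type libraries, while the genotypes overlap for Tyms and Chaf1a.

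The 250 bases before the RefSeq start site of Cdc6 are printed because this is the called member and carries a match to the E2F recognition sequence. The GENCODE gene given above begins further upstream, at 98907801, so this stretch lies inside it. Capitals mark the match, which begins 138 bases before the start site (chr11:98907901-98908150, plus strand, GRCm38.p6, the mm10 assembly):
Cdc6: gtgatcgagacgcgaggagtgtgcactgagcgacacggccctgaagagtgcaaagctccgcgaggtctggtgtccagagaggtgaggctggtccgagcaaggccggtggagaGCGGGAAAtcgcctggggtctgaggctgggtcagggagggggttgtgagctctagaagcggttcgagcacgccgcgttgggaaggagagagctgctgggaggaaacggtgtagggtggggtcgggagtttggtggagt

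E2F matches were frequent in these promoters. RefSeq promoters of 250 bases before to 50 after the start were at hand for 33 of the 40 genes (39 promoters, since some genes have several starts); Gins1, Gins2, Gins4, Mcm4, Pole, Prim2 and Rfc2 had no entry. The motif was searched as TTTCCCGC, TTTGGCGC, TTTCGCGC and TTTGCCGC on both strands, where the second and the third can overlap each other's reverse strand. At least 1 match was found in 13 of the 39 promoters (33.3%), against 2.26% of all 32851 promoters and 3.97% of the 12396 promoters of tested genes. The last form was not found in any of the 39. The CCAAT box (CCAAT, bound by NF-Y, both strands) was present in 56.4% of the members' promoters, 37.4% of all promoters and 37.8% of those of tested genes. The CHR element (TTTGAA, both strands), known from promoters of mitotic genes, was present in 12.8%, 17.9% and 11.7%. A match is a description of letters in this window and not of a bound site.

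For comparison with Cdc6, 30-base windows are shown of the 7 other members whose match lies before the RefSeq start site. Within the GENCODE gene bounds, the windows of Mcm7, Gins3 and Rfc3 lie inside the gene, as does most of that of Orc1. The windows are each read 5′ to 3′ on the strand of the gene with the match in capitals. They lie at chr4:108579416-108579445 (Orc1), chr8:75109345-75109374 (Mcm5), chr1:128359797-128359826 (Mcm6), chr5:138172030-138172059 (Mcm7), chr8:95633507-95633536 (Gins3), chrX:93632275-93632304 (Pola1) and chr5:151651209-151651238 (Rfc3), on the plus strand for Orc1, Mcm5 and Gins3 and on the minus strand for the others:
Orc1: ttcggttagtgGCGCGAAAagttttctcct
Mcm5: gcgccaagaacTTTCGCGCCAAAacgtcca
Mcm6: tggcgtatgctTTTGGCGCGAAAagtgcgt
Mcm7: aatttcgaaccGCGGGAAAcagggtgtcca
Gins3: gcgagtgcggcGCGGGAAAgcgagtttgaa
Pola1: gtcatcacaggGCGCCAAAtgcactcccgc
Rfc3: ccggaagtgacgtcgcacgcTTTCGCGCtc

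In Mcm5 and Mcm6 a match on 1 strand overlaps a match on the other, so a single stretch reads as an E2F sequence in both directions. Mcm6 has a further match 47 bases before its start. Members with and without a match had similar medians. The 13 genes with a match had a median log2 fold change of -0.23, from -0.48 (Cdc6) to -0.06 (Lig1), and the 20 genes in the promoter table without a match had a median of -0.21, from -0.37 (Mcm10) to 0.16 (Chaf1a).

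The other licensing genes lay lower in Shh null without passing the test. Orc2, a core subunit of the origin recognition complex, was at 234 and 220 CPM in wild type and 169 and 187 CPM in Shh null (log2 fold change -0.35 ± 0.10 SE, adjusted p = 0.0999), without overlap of the genotypes. Reads of Orc2 and its neighbour may have been shared, because Orc2 shares 1150 exon bases with Nif3l1 on the opposite strand and the strand setting of the counting is not given; Nif3l1 was at 104 and 100.2 against 75.6 and 84.1 CPM. Orc1, the subunit most tied to S phase entry, was at 45.5 and 43.9 against 32.1 and 36.4 CPM (log2 fold change -0.38 ± 0.12, adjusted p = 0.127). Cdt1, the partner of Cdc6 in loading, had the smallest difference of the group, at 42.0 and 38.1 against 34.4 and 33.8 CPM (log2 fold change -0.22, adjusted p = 0.326). Orc6 was the only 1 of the 5 whose genotypes overlapped, since Shh null 2 (100.4 CPM) was above wild type 2 (94.9 CPM). The other 4 had both Shh null libraries below both wild-type ones, which 25% of all tested genes did. The median log2 fold change of the 5 licensing genes was -0.35.

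The MCM helicase subunits all lay lower in Shh null. Mcm2 to Mcm7 form the ring that unwinds DNA, and for 6 of 6 both Shh null libraries lay below both wild-type libraries (25% of all tested genes did so). Mcm3 was at 347 and 364 CPM in wild type and 289 and 293 CPM in Shh null, the largest difference of the ring (log2 fold change -0.29 ± 0.09, adjusted p = 0.148). Mcm7, the subunit with the highest level per exon length, was at 574 and 592 against 496 and 467 CPM (-0.28 ± 0.10, adjusted p = 0.179). Mcm6 had the smallest difference, at 471 and 454 against 382 and 438 CPM (-0.18 ± 0.11, adjusted p = 0.402). Mcm2, Mcm4 and Mcm5 lay between, with log2 fold changes of -0.23, -0.22 and -0.25. The 6 log2 fold changes thus spanned -0.29 to -0.18, and 0 of 6 were called by limma, edgeR or DESeq2, and before adjustment limma put 4 below 0.05. The exons of Mcm7 overlap those of Ap4m1, Cops6, Mir25 and Mir93 over 557 bases.

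Among the genes that turn the loaded helicase on, Mcm10 and Cdc45 had the largest log2 fold changes; the difference from the GINS subunits was not tested, and the 95% intervals overlap. Mcm10, which helps to activate the helicase, was at 139 and 144 CPM in wild type and 102 and 118 CPM in Shh null (log2 fold change -0.37 ± 0.10, adjusted p = 0.103). Cdc45, which joins MCM and GINS in the working helicase, was at 148 and 142 against 106 and 125 CPM (-0.33 ± 0.11, adjusted p = 0.142). In both genes the genotypes did not overlap and Shh null 1 was the lowest library. With Gins4, 3 of the 6 genes (50%) had both Shh null libraries below both wild-type ones, against 25% of all tested genes. The 4 GINS genes had log2 fold changes of -0.14 (Gins3), -0.11 (Gins4), -0.10 (Gins1) and -0.04 (Gins2), and for Gins1, Gins2 and Gins3 the libraries of the genotypes overlapped. Gins2 was at 44.6 and 54.0 against 47.6 and 47.9 CPM, and its sign turned without wild type 2 (0.10). Gins2 shares 2758 of its 4097 exon bases with Gse1 on the other strand, which was at 12.5 to 13.7 CPM in the 4 libraries. None of the 6 genes was called by limma, edgeR or DESeq2, and Mcm10 and Cdc45 were the 2 with an unadjusted limma p under 0.05.

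The log2 fold changes of the 6 polymerase and primase genes ran from -0.26 to -0.04, with overlapping 95% intervals for the genes at both ends. Pole, the catalytic subunit of the leading-strand polymerase, was at 176 and 180 CPM in wild type and 156 and 143 CPM in Shh null (log2 fold change -0.26 ± 0.10, adjusted p = 0.193). Pola2, the regulatory subunit of DNA polymerase alpha, was at 126 and 126 against 108 and 107 CPM (-0.23 ± 0.09, adjusted p = 0.229), with replicates that were nearly equal. Both Shh null libraries lay below both wild-type ones for these 2 of the 6 genes (33.3%). That is near the share of 25% of all tested genes and 30.6% of those within the members' range of wild-type means. In these 2 genes the genotypes thus did not overlap. In Pola1, Prim1, Prim2 and Pold1 they did: Pola1, the catalytic subunit that extends the primer, was at 246 and 220 against 211 and 224 CPM (log2 fold change -0.10), and Prim1, the primase itself, at 138 and 111 against 111 and 131 CPM (-0.04, 95% interval -0.32 to 0.25). The signs of Prim1 and Pola1 turned with quantile normalization (0.04 and 0.02), and that of Prim1 without wild type 1 (0.12) and without Shh null 1 (0.08). Prim2, the large primase subunit, had a log2 fold change of -0.23 that came mostly from Shh null 1, at 62.7 CPM against 80.5 CPM in Shh null 2 and 79.3 CPM in wild type 2. Pold1, the catalytic subunit of the lagging-strand polymerase, had a log2 fold change of -0.08. None of the 6 was called by any of the 3 tools, and 2 had an unadjusted limma p under 0.05, both lower.

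Pcna, which encodes the sliding clamp, had the highest level of the list per exon length, at a wild-type mean of 327 CPM per kb of exon against a median of 27.0 CPM per kb over the 40 genes. It was measured at 842 and 728 CPM in wild type and 607 and 711 CPM in Shh null. The genotypes did not overlap, but wild type 2 and Shh null 2 lay close together. The 95% interval of the log2 fold change just included 0 (-0.25 ± 0.12, limma adjusted p = 0.304, 95% interval -0.53 to 0.02). Pcna has the annotated pseudogenes Pcna-ps1 and Pcna-ps2, whose reads could be shared with it. Of the clamp loader genes, Rfc3 was at 94.4 and 90.8 against 72.0 and 83.7 CPM (-0.25 ± 0.11, adjusted p = 0.252), and Rfc2 at 164 and 165 against 159 and 156 CPM (-0.07, adjusted p = 0.747). Rfc2 shows how small a difference can leave the libraries without overlap: its mean differed by -4.46%, and its sign turned with quantile normalization (0.02). On the log2 scale Rfc4 had the largest gap between the Shh null libraries in the list (0.50), at 43.8 and 62.3 CPM. Rfc5 overlapped too, with a log2 fold change of -0.13. This left 3 of the 5 genes with both Shh null libraries below both wild-type ones, which 25% of all tested genes had. None of the 5 genes was called by limma, edgeR or DESeq2, and Rfc3 was the 1 with an unadjusted limma p under 0.05.

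**Figure D4:**
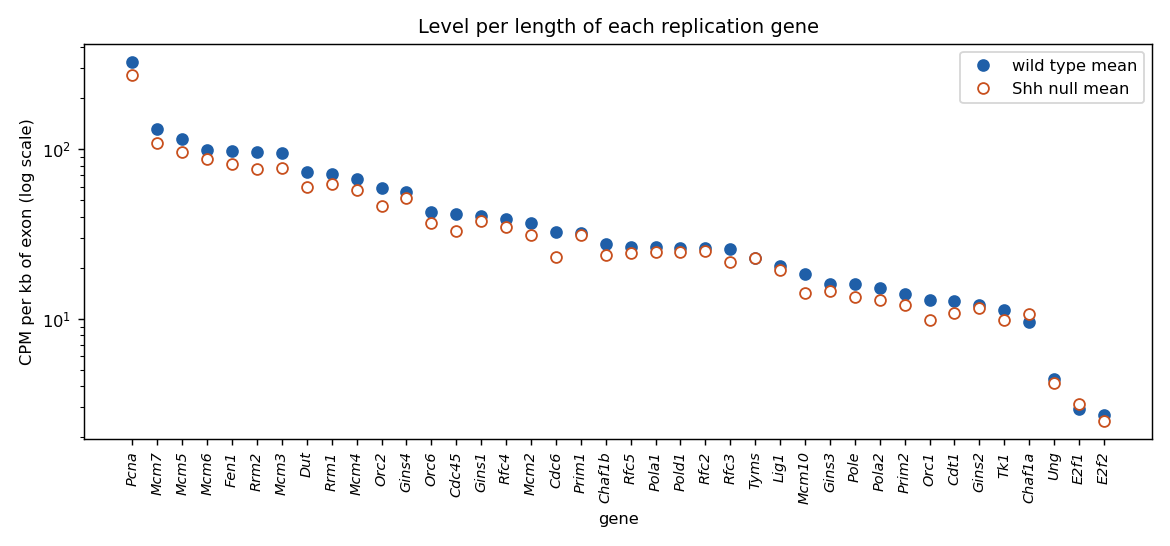
Mean level of each gene in CPM per kb of exon (log scale), wild type filled and Shh null open, genes ordered by their wild-type level. The levels run from 327 CPM per kb for Pcna to 2.70 CPM per kb for E2f2, and the open symbols lie just under the filled ones except for Chaf1a and E2f1.

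Okazaki fragments, the short pieces of the lagging strand, are trimmed by the flap nuclease Fen1 and joined by the ligase Lig1. Fen1 was at 250.9 and 221 CPM in wild type and 194 and 204 CPM in Shh null (log2 fold change -0.24 ± 0.10, adjusted p = 0.237). Lig1 was at 75.7 and 98.8 against 83.4 and 82.8 CPM, so that both Shh null libraries fell between the wild-type ones (-0.06 ± 0.13, adjusted p = 0.856), and its sign turned without wild type 2 (0.13). Fen1 shares 130 exon bases with Tmem258 on the other strand. Neither was called by the 3 tools, and Fen1 was the 1 with an unadjusted limma p under 0.05.

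In nucleotide supply, Rrm2 and Dut had the largest differences and Tyms the smallest of the whole list. Rrm2, the S phase subunit of ribonucleotide reductase, was at 236 and 300.2 CPM in wild type and 214 and 211 CPM in Shh null (log2 fold change -0.33 ± 0.12, adjusted p = 0.191). The wild-type libraries were far apart and the Shh null libraries close. Without wild type 1, Rrm2 was called (log2 fold change -0.50, adjusted p = 0.0282) and was then the only called member. Rrm1, the large subunit, had steadier replicates at 786 and 789 against 673 and 701 CPM (-0.20 ± 0.10, adjusted p = 0.332). Dut, which breaks down dUTP so that uracil stays out of DNA, was at 168 and 186 against 140.1 and 147 CPM (-0.30 ± 0.10, adjusted p = 0.150).

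Tyms, which makes thymidylate from deoxyuridylate, was at 149 and 131 CPM in wild type and 131 and 146 CPM in Shh null, a log2 fold change of -0.01 with a 95% interval of -0.26 to 0.23. Its sign turned with quantile normalization (0.07), without wild type 1 (0.08) and without Shh null 1 (0.07), and the gene has an annotated pseudogene, Tyms-ps. Tk1, which salvages thymidine, was at 62.5 and 54.7 against 51.3 and 50.6 CPM (-0.20, adjusted p = 0.375). Ung, which removes uracil from DNA, was at 23.8 and 24.4 against 22.7 and 23.3 CPM (-0.07, adjusted p = 0.819). Of these 6 genes, 5 had both Shh null libraries below both wild-type ones (25% of all tested genes did), and Tyms did not. None was called by limma, edgeR or DESeq2, and 2 had an unadjusted limma p under 0.05, both lower.

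The chromatin assembly subunits, which deposit histones on new DNA, did not share a direction. Chaf1b was at 126 and 131 CPM in wild type and 119 and 105 CPM in Shh null (log2 fold change -0.20 ± 0.10, adjusted p = 0.336). Chaf1a was at 74.4 and 95.8 against 105 and 84.5 CPM (0.16 ± 0.14, adjusted p = 0.597), and the genotypes overlapped. Its sign turned without wild type 1 (-0.02). Of the exon bases of Chaf1a, 4648 of 8854 lie in exons of Ubxn6 on the opposite strand, which was at 54.1 and 46.1 against 52.7 and 55.7 CPM. Neither subunit was called by any of the 3 tools, and 0 had an unadjusted limma p under 0.05.

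E2f1 and E2f2, activators of S phase genes, had the lowest levels per exon length, at wild-type means of 2.93 and 2.70 CPM per kb. E2f1 was at 9.97 and 8.48 CPM in wild type and 10.1 and 9.84 CPM in Shh null (log2 fold change 0.11 ± 0.15, adjusted p = 0.760). E2f2 was at 15.8 and 10.5 against 12.3 and 12.2 CPM (-0.07 ± 0.19, adjusted p = 0.878), the widest wild-type gap of the list on the log2 scale, and its sign turned without wild type 1 (0.20). The genotypes overlapped in both genes. The intervals of -0.24 to 0.45 and -0.49 to 0.35 leave room for sizeable differences in either direction, so these values do not show that the activators were equal between genotypes.

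**Figure D5:**
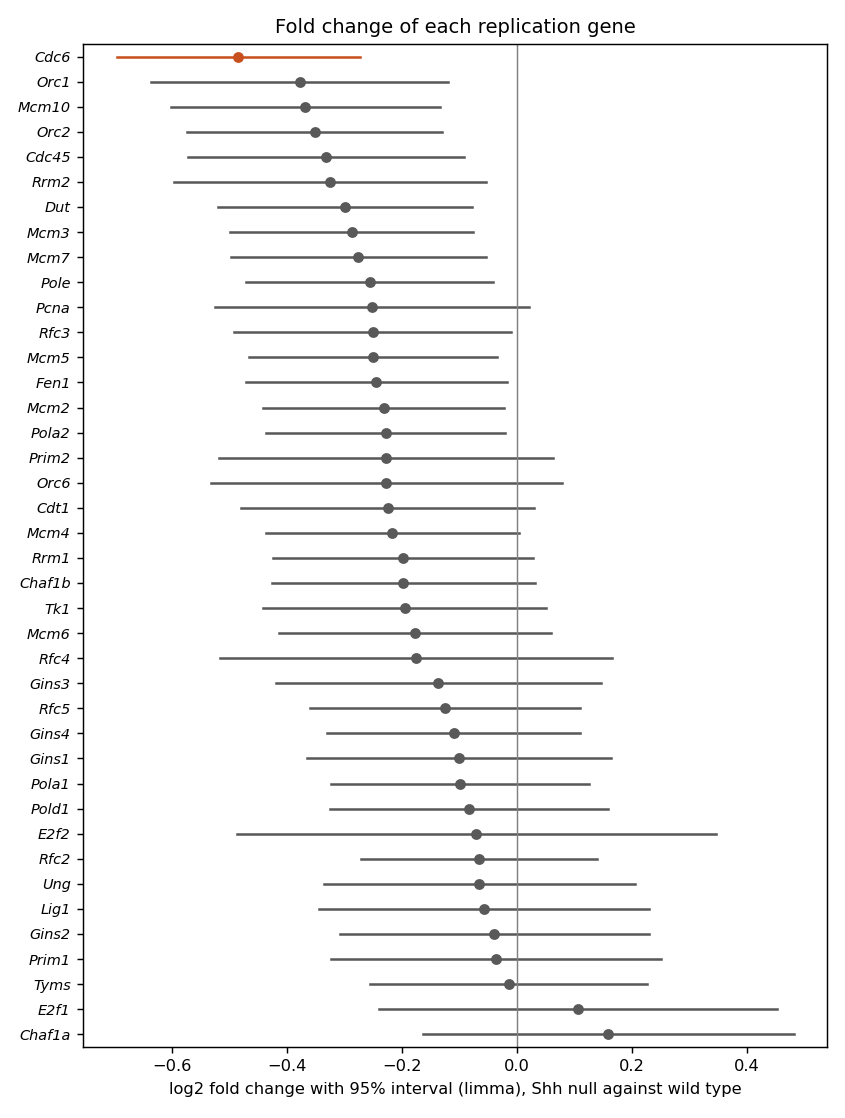
Log2 fold change of each of the 40 genes (points) with its 95% interval from limma (lines), ordered by size; orange marks the gene called at an adjusted p under 0.05. Cdc6 lies at -0.48, 15 intervals exclude 0, and Chaf1a and E2f1 are the 2 points above 0.

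The rest of the pathway was described from 7 lists of other genes. Over these lists limma called 2 of 102 tested genes lower, against 1.24% of all tested genes. That is near the background and is no result about the lists. Of 26 further components of the replication machinery, 20 were below 0 with a median log2 fold change of -0.12. None was called by limma, edgeR or DESeq2 (4 had an unadjusted limma p under 0.05, all lower). Pole2, the second subunit of the leading-strand polymerase, and Orc4 had the largest differences, at 60.4 ± 4.49 and 48.0 ± 5.33 CPM (SD, n = 2; log2 fold change -0.33, adjusted p = 0.181) and at 137 ± 17.9 and 111 ± 22.0 CPM (-0.31, adjusted p = 0.278). Of 12 kinases and regulators of licensing, 12 were below 0 with a median of -0.19, and Ccne1, the cyclin that acts with Cdk2 at the entry to S phase, was the 1 called. It fell by 27.7% in mean CPM, from 121 and 133 CPM to 88.9 and 94.5 CPM (log2 fold change -0.46 ± 0.10, adjusted p = 0.0457).

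In the list of other nucleotide synthesis enzymes, 16 of 17 were below 0 and the median of -0.27 was further from 0 than that of the 40 genes. Ctps, which makes CTP from UTP, was the 1 called by limma, which called 1.24% of all tested genes lower. Its level fell from 256 and 269 CPM to 184 and 193 CPM (log2 fold change -0.47 ± 0.09, adjusted p = 0.0327). Ppat, the entry enzyme of purine synthesis, was at 249 and 250 against 170.0 and 194 CPM with an adjusted p of 0.0501, and is named after its value was seen. DESeq2 called 3 genes of the list lower, Ctps, Ppat (adjusted p = 0.00786) and Nme1 (0.0338), against 2.06% of all tested genes. With limma, Ppat was also called with median-ratio scaling (adjusted p = 0.0474) and with the filter at 5 CPM (0.0491). Without wild type 2 its log2 fold change was -0.45. The calls of Ccne1 and Ctps each ended when wild type 2 (adjusted p = 0.0959 and 0.052), Shh null 1 (0.32 and 0.255) or Shh null 2 (0.101 and 0.0906) was left out, with quantile normalization (0.107 and 0.103), with no filter (0.0782 and 0.0591) and with the replicate block (0.0527 and 0.0503).

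Genes of chromatin copying gave 7 of 8 below 0 with a median of -0.25, and none called by the 3 tools (4 had an unadjusted limma p under 0.05, all lower). The histone chaperone gene Asf1b was at 40.5 ± 1.44 and 31.8 ± 0.973 CPM (log2 fold change -0.34, adjusted p = 0.150), and Uhrf1, which brings the maintenance methyltransferase to new DNA, at 592 ± 53.9 and 474 ± 21.9 CPM (-0.32, adjusted p = 0.156). Genes of mitosis, the later phase of the same cycle, stood close to the replication genes: 19 of 20 were below 0, the median was -0.18, and 13 of 20 (65%) had both Shh null libraries below both wild-type ones, against 62.5% of the 40 and 25% of all tested genes. None was called by limma, edgeR or DESeq2 (3 had an unadjusted limma p under 0.05, all lower). Cenpa, the centromeric histone, was at 115 ± 10.6 and 91.3 ± 7.16 CPM (-0.33, adjusted p = 0.155), and Nusap1, a spindle protein gene, at 182 ± 23.8 and 149 ± 4.27 CPM (-0.28, adjusted p = 0.218). The difference between the lists was not tested.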

How the data were processed

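Total RNA was taken with TRIzol from forelimbs, 2 libraries per genotype, per the labels' protocols. Build mm10, edgeR 3.4.2, HTSeq 0.5.4p5, SAMtools and TopHat2 2.0.9 are named in the submitters' processing notes. Which annotation the counting used, and whether it used strand, is not given in the sources used here. The authors deposited 1 signal value per gene and library. All values (100%) were whole multiples of the smallest value in their column within 0.001 reads, and TMM scaling of the recovered reads returned the deposited values, so the signal is CPM. The authors deposited log2 fold changes with p-values in a second table. Of its rows, 23 were not used because the gene name found no match or was duplicated.

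Log2(CPM + 1) of the 13224 genes with at least 1 CPM in 2 libraries was fitted with limma 3.58.1 (R 4.3.3; trend, genotype as the only term), and genes with a Benjamini-Hochberg adjusted p under 0.05 were called. With 2 libraries a group, the smallest two-sided p of an exact permutation test is 0.333. Alternatives were other pseudocounts (0.5, 0.1), filters (none, 5 CPM), quantile and median-ratio scaling, a replicate block, leaving out each library, and edgeR 4.0.16 and DESeq2 1.42.0 on recovered reads. A crossed replicate block was added after seeing the data. The fits were tested on simulated data, in which the differences put in were all larger than those of the members. That test does not cover differences of the members' size. Exon lengths and coordinates are from GENCODE M21, promoters from RefSeq (GRCm38.p6). Members and lists were chosen with earlier results of these data known. Named were the genes that check the labels, called members, the member with the largest, the smallest change and the highest level in each role, and the called genes or else the 2 largest changes of each list. The other members are given as well.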

Additional observations from a re-analysis of the deposited data

How the results depend on the processing

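Over all tested genes limma called 164 lower and 164 higher. These counts were 91 and 79 with no filter on low values, 273 and 253 with DESeq2, and ran from 45 to 376 and from 16 to 373 when 1 library was left out, lowest without Shh null 1 and highest without wild type 2. Of the 40 replication genes, 1 was called lower; with no filter and with quantile normalization 0 were, and leaving out 1 library gave 0 to 1. Of the 102 other pathway genes tested, 2 were called lower, against 1.24% of all tested genes. No filter, quantile normalization and the replicate block each gave 0, and DESeq2 gave 4, against 2.06% of all tested genes. The calls changed when 1 library was left out. The members' median log2 fold change of -0.207 was -0.128 with quantile normalization and ran from -0.229 to -0.156 when 1 library was left out.

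The replicate block kept 1 member called (Cdc6, adjusted p = 0.0401). Same-numbered libraries are not shown to be paired, since their within-genotype differences correlated at -0.203 across genes. A crossed block, chosen after seeing the data from that correlation, called 745 genes lower and 641 higher. It called 9 of the 40 members lower, and 20 other pathway genes lower and 2 higher. The crossed block, the replicate block and each fit without 1 library leave 1 residual degree of freedom, fewer than the main fit.

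Some signs turned. With quantile normalization the log2 fold change was 0.0431 for Prim1, 0.0191 for Pola1, 0.0163 for Rfc2 and 0.0735 for Tyms. Leaving out 1 library gave ranges of -0.174 to 0.0956 for Gins2, -0.189 to 0.116 for Prim1, -0.247 to 0.133 for Lig1, -0.108 to 0.0794 for Tyms, -0.0209 to 0.339 for Chaf1a, -0.343 to 0.201 for E2f2 and -0.0987 to 0.922 for Cdkn2c. The cause of these shifts was not tested. With 1 library left in a group, that library is assumed to vary like the others.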

Other observations

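Of 11 genes of the E2F family and its partners outside the list, 8 were below 0 (50.1% of all tested genes were), with a median log2 fold change of -0.09, and none was called by limma, edgeR or DESeq2 (2 had an unadjusted limma p under 0.05, both lower). E2f5, a repressor-type member, was at 54.3 and 55.6 CPM in wild type and 32.0 and 45.2 CPM in Shh null, the largest difference (log2 fold change -0.52, adjusted p = 0.112), and was called without Shh null 2 (-0.76, adjusted p = 0.0432). E2f4 was at 69.9 and 77.0 against 60.7 and 59.7 CPM (-0.28, limma adjusted p = 0.188). The 3 genes above 0 were Rbl2 (0.25), E2f7 (0.21) and Rb1 (0.19). Each had both Shh null libraries above both wild-type ones, as 25.1% of all tested genes did. The opposite order was seen for 5 of the 11, against 25% of all tested genes.

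Of 10 listed genes of cell cycle arrest 8 were tested, 6 of them above 0, with a median log2 fold change of 0.27, and none was called by the 3 tools (before adjustment limma put 3 higher and 1 lower below 0.05). Cdkn1a, the p21 inhibitor, and Ccng1 (log2 fold change -0.10) were the 2 below 0. Both Shh null libraries lay above both wild-type ones for 4 of the 8, against 25.1% of all tested genes. These were Btg1 (log2 fold change 0.36), Cdkn2d (0.35), Cdkn1c (0.26) and Cdkn1b (0.20). The opposite order was seen for 1, Cdkn1a, against 25% of all tested genes. Cdkn1a was at 2.42 and 2.70 CPM in wild type and 0.664 and 1.83 CPM in Shh null (-0.71, adjusted p = 0.176). Cdkn2c was at 3.26 and 1.10 against 2.94 and 3.02 CPM (0.41, adjusted p = 0.490). It was called without wild type 1 (0.92, adjusted p = 0.0253), and its sign turned without wild type 2.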
